A study of Mus musculus with 9 samples.

Results

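The genes described here encode the cytokines interleukin-6 (*Il6*), interleukin-11 (*Il11*), leukemia inhibitory factor (*Lif*) and oncostatin M (*Osm*), the receptor chains *Osmr*, *Il6ra*, *Il6st* and *Il11ra1*, the transcription factor *Stat3* and the feedback inhibitor *Socs3*. They were chosen by gene symbol, and all 10 were found among the 27719 genes of the count table. The table holds full-length cDNA reads of mouse colon, sequenced on an Oxford Nanopore instrument, with 1 library per mouse and 3 mice in each of 3 groups. All animals were C57BL/6J mice. The control group drank distilled water. The DSS group received 2.5% dextran sodium sulfate (DSS), a chemical that injures the colonic epithelium and is used to model ulcerative colitis, in drinking water for 7 days. The DSS + EA group received the same DSS together with electroacupuncture (EA), which passes a weak current through needles, at both ST36 acupoints of the hind limbs. EA was given once a day for 5 days, starting after 5 days of modeling, in sessions of 30 minutes at 2 Hz and 0.2 mA. Control and DSS mice were held for the same time without EA. The RNA came from whole colon tissue, so that more cells of a type and more RNA per cell cannot be told apart in any result.

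Cytokines of the IL-6 family bind a private receptor chain and then recruit the shared signalling chain gp130, which is the product of *Il6st*. IL-6 uses *Il6ra*, IL-11 uses *Il11ra1*, oncostatin M pairs gp130 with the product of *Osmr*, and LIF pairs it with the product of *Lifr*. Receptor-bound JAK kinases phosphorylate STAT3, which enters the nucleus and induces acute-phase, survival and repair genes together with *Socs3*, whose product binds gp130 and shuts the signal off. In the intestine the pathway is known both for the restitution of injured epithelium and for the maintenance of inflammation.

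The members lie on 7 mouse chromosomes (build GRCm38), and 4 of them are on chromosome 11. *Osm* (chr11:4236420-4241026, plus strand) and *Lif* (chr11:4257557-4272514, plus strand) are neighbours separated by 16.53 kb. *Il6* occupies chr5:30013114-30019981 on the plus strand, *Il11* chr7:4772373-4782859 on the minus strand, *Stat3* chr11:100885098-100939540 on the minus strand and *Socs3* chr11:117966079-117970047 on the minus strand. The receptor genes are *Osmr* (chr15:6813577-6874969, minus strand), *Il6ra* (chr3:89864059-89913196, minus strand), *Il6st* (chr13:112464070-112510086, plus strand) and *Il11ra1* (chr4:41699989-41769474, plus strand).

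The upstream sequences of 4 members are shown because the RNA levels of these genes differed strongly between the groups and because their windows hold letters that match motifs of signal-dependent factors. RefSeq promoter windows (GRCm38.p6, 250 bases before to 50 after a start site) were given for 9 of the 10 members, in 11 windows, and the lines hold the part upstream of the start site and outside annotated exons. Capitals mark the motif matches, all sequences read 5′ to 3′ on the strand of the gene, and positions are counted from the start site.
*Il6* (chr5:30012864-30013113, plus strand): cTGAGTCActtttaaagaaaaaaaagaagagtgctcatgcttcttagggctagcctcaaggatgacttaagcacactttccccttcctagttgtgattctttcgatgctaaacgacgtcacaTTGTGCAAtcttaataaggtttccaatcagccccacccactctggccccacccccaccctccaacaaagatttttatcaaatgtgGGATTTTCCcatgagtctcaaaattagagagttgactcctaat
*Il11* (chr7:4778142-4778391, minus strand): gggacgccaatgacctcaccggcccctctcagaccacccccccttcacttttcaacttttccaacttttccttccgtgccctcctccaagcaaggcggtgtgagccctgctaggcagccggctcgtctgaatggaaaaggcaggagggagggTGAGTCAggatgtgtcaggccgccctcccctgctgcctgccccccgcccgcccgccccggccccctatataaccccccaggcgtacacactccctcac
*Lif* (chr11:4257318-4257556, plus strand): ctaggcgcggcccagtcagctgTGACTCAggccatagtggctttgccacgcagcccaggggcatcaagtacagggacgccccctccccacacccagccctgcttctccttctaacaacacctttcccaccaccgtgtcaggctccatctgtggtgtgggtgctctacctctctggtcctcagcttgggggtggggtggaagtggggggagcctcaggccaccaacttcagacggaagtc
*Socs3* (chr11:117969452-117969616, minus strand): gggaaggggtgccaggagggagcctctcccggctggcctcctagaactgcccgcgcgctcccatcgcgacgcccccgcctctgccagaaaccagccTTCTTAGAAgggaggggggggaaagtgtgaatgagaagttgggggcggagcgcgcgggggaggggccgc

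Motifs were searched on both strands. The STAT motif TTCNNNGAA was found in *Socs3* alone among the member windows, at position -154, and in 8.3% of the 32851 RefSeq windows. The NF-kB motif GGNNTTTCC was found in *Il6* alone, at -43, against 5.82% of all windows. The C/EBP motif TTGCNNAA was also found in *Il6* alone, on the opposite strand at -128, against 10.8% of all windows. The AP-1 motif TGANTCA was present in *Il6* at -249, *Il11* at -98, *Lif* at -228 and, just inside the transcribed part, *Osmr* at 4, against 7.81% of all windows. No 2 of these motifs overlapped. A match describes letters in a window and is no evidence of binding, and the windows of *Stat3*, *Il6st*, *Il6ra* and *Il11ra1* held none of the letters searched.

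Levels are given as CPM, which are read counts scaled to a common library size with TMM factors, and a gene is called when edgeR's quasi-likelihood test gives a Benjamini-Hochberg adjusted p under 0.05 over the 12566 genes tested. All 10 members were tested. Compared with the control group, 9 of 10 members were called higher in the DSS group, where 21.5% of all genes tested were called higher. The median log2 fold change of the members was 3.43, and it was 0.02 over all genes tested. Under the DEG rule of the study (log2 fold change beyond 2.5 and unadjusted P under 0.01), 7 members were higher, against 6.62% of all genes. Each of the 9 members called remained called in all 9 fits that left out 1 mouse. Compared with the DSS group, 7 of 10 members were called lower in the DSS + EA group, with a median log2 fold change of -1.86, against 18.3% of all genes and a median of -0.02. These comparisons share the 3 DSS mice, so that a high value in one of them enters both. Under the DEG rule 2 members, *Il6* and *Osm*, were lower with EA, against 3.50% of all genes.

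In single mice, 9 members had no overlap between control and DSS, with the DSS mice higher, which 26.2% of all genes tested also showed. Between DSS and DSS + EA, 6 members had no overlap, with the DSS + EA mice lower, against 23.3% of all genes. Within the DSS group, mouse 2 held the highest level of 8 of the 10 members. The plot of the members by mouse shows these levels on one scale.

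**Figure D1:**
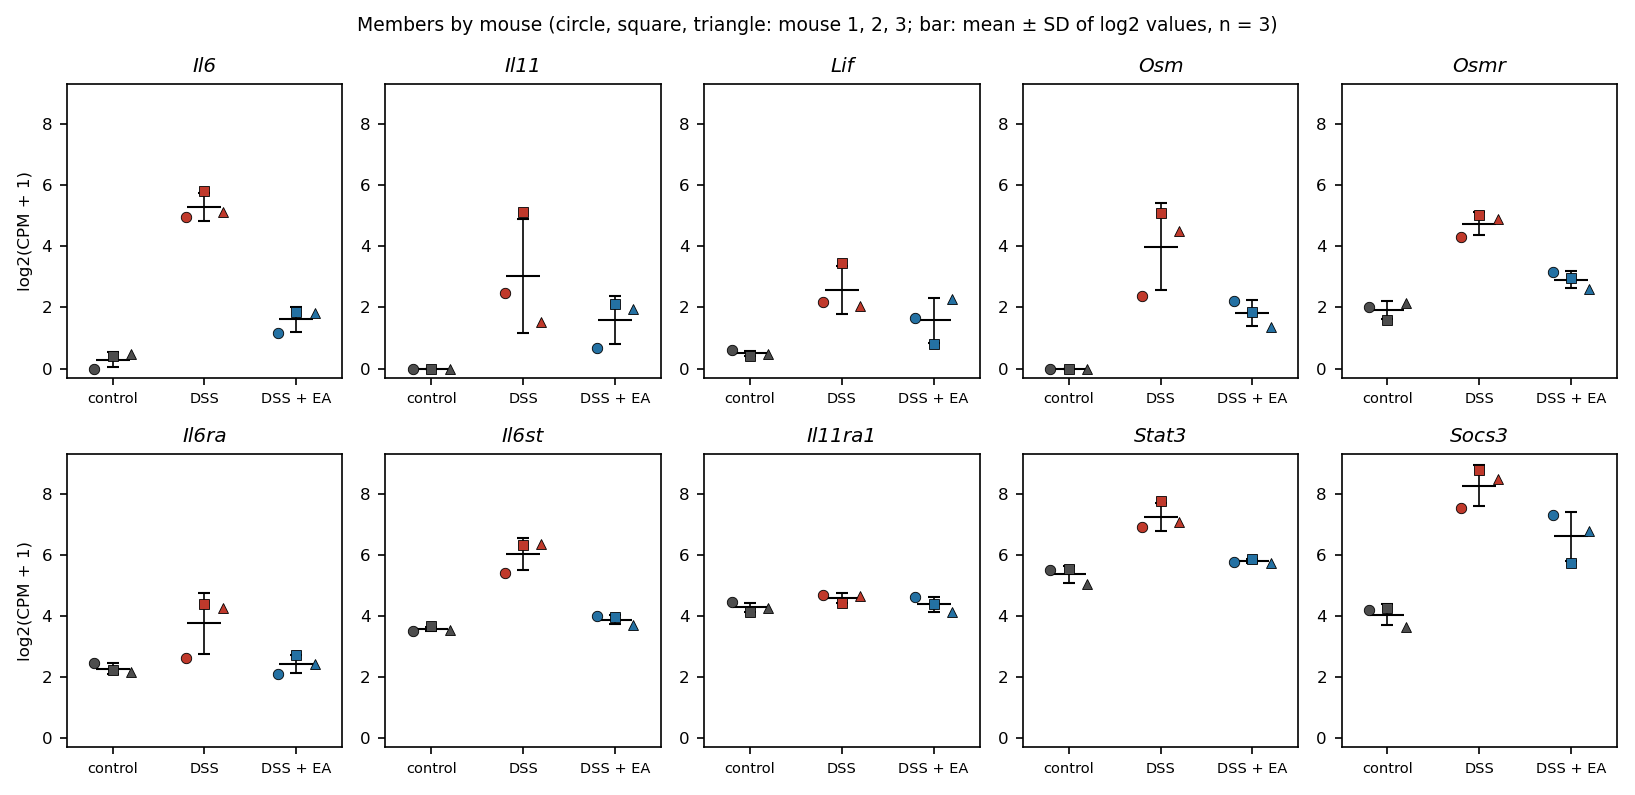
The vertical axes give log2(CPM + 1) of each member in the 9 mice, with circles, squares and triangles for mice 1, 2 and 3 of a group and bars for the mean ± SD of the log2 values (n = 3). The DSS mice lie above the control mice for 9 members, while the levels of *Il11ra1* overlap in all groups.

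Among the ligands, *Il6*, the founding cytokine of the family and an inducer of the acute-phase response, was separated between all 3 groups. Its level in DSS mice 1, 2 and 3 was 29.92, 55.40 and 34.02 CPM. The control mice held 0, 0.333 and 0.383 CPM, which is 2 counts in all, and the DSS + EA mice held 1.217, 2.615 and 2.538 CPM. No DSS + EA mouse reached the lowest DSS mouse, and none fell to the highest control mouse. Because the control counts were so few, the difference between DSS and control is given as a ratio of counts, 200-fold with a 95% counting interval of 55.0 to 1656, and edgeR's quasi-likelihood test gave an adjusted p of 3.19e-05. The log2 fold change between DSS + EA and DSS was -4.23 (SE 0.42, edgeR adjusted p = 0.000321), or 18.7-fold lower with EA. The level of the DSS + EA mice was 9.96 times that of the controls (counting interval 2.40 to 88.1), which was not called (edgeR adjusted p = 0.0574) but was called without DSS mouse 1 (0.0457) or DSS mouse 2 (0.0473).

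*Osm*, a product of activated myeloid cells that acts on stromal cells, was at 0 in all 3 control mice. In the DSS mice it was 4.182, 33.03 and 21.85 CPM, and in the DSS + EA mice 3.652, 2.615 and 1.586 CPM. DSS mouse 1 thus stood closer to the DSS + EA mice than to the other DSS mice, although the groups did not overlap. Against the floor of 3 counts per control library, the DSS level of *Osm* exceeded control at least 20.3-fold (edgeR adjusted p = 0.0017), and at least 13.4-fold without DSS mouse 2. The level with EA was lower than in DSS by a log2 fold change of -2.90 (SE 0.73, edgeR adjusted p = 0.0178). This call was lost without DSS mouse 2 (-2.31, adjusted p = 0.0604), without DSS + EA mouse 2 (-2.86, 0.055) and without DSS + EA mouse 3 (-2.65, 0.0672), in the same edgeR test.

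*Il11*, a cytokine made mainly by stromal cells, was also at 0 in all control mice and was uneven among the DSS mice. The DSS mice held 4.504, 33.89 and 1.872 CPM, so that mouse 2 stood far above the others, and the DSS + EA mice held 0.609, 3.362 and 2.855 CPM. The ranges of DSS and DSS + EA overlapped. The mean DSS level of *Il11* exceeded the floor of the control libraries at least 13.8-fold (edgeR adjusted p = 0.0124), and this bound was 3.29 without DSS mouse 2. The difference between DSS + EA and DSS was -2.61 (log2, SE 1.08) and was not called (edgeR adjusted p = 0.0935). Without DSS mouse 2 it was -0.51, and without DSS mouse 3 it was -3.11 and called (adjusted p = 0.0369 in the same edgeR test).

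*Lif*, a cytokine named for its action on leukemia cells and known for sustaining stem cells, was nearly absent from the control mice, at 2, 1 and 1 counts. The DSS mice held 3.539, 9.995 and 3.121 CPM, and the DSS + EA mice 2.131, 0.747 and 3.806 CPM, so that DSS and DSS + EA overlapped. The count ratio of DSS to control was 14.7 (95% counting interval 5.47 to 55.4, edgeR adjusted p = 0.00436), and it was 7.94 without DSS mouse 2. *Lif* was not called between DSS + EA and DSS, with a log2 fold change of -1.32 (SE 0.58, edgeR adjusted p = 0.103). The ligand genes *Il11* and *Lif* were thus called in the first comparison and not in the second, and whether EA acted differently on them than on *Il6* and *Osm* was not tested.

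**Figure D2:**
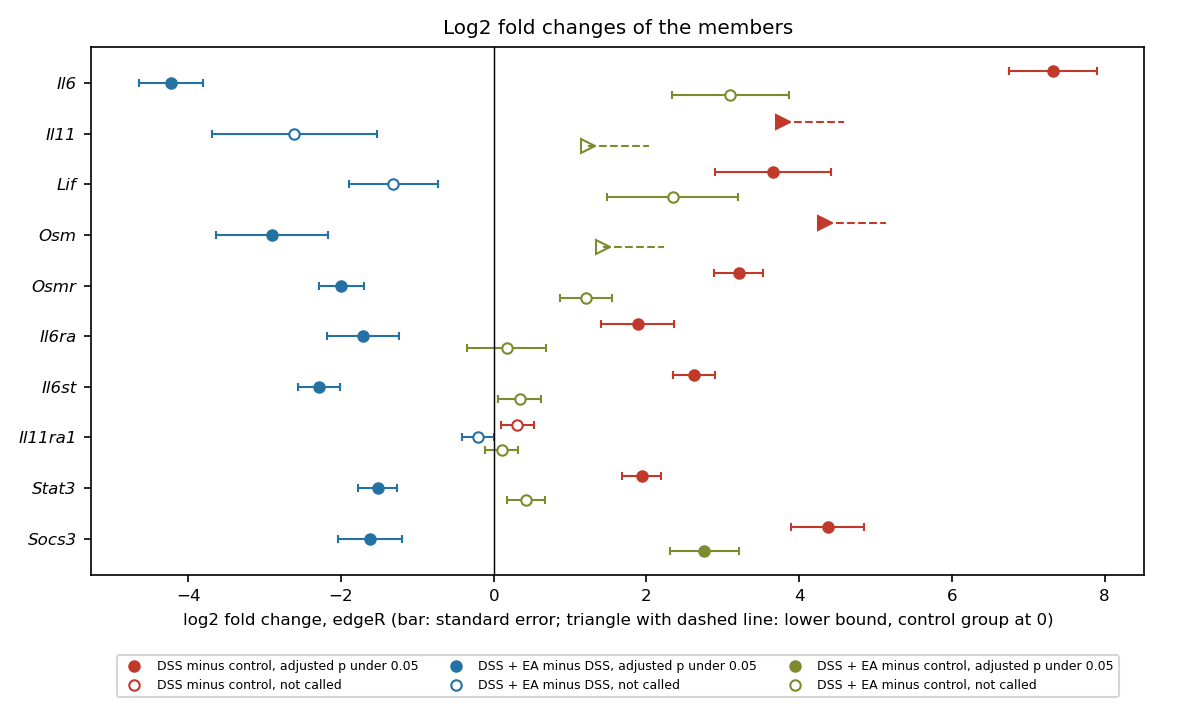
The horizontal axis gives the log2 fold change of each member in 3 comparisons, with bars for the standard error and filled symbols for an adjusted p under 0.05 in edgeR's test. Triangles with dashed lines mark lower bounds for *Il11* and *Osm*, whose control mice were all at 0, and *Il11ra1* lies near 0 in every comparison.

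Among the receptor chains, the shared chain *Il6st* and the oncostatin M receptor *Osmr* were higher in every DSS mouse than in any mouse of the other groups. *Il6st* was 10.42, 11.64 and 10.73 CPM in the control mice, 41.82, 79.74 and 80.83 CPM in the DSS mice, and 14.91, 14.57 and 12.05 CPM in the DSS + EA mice. All DSS mice were above all others, and every DSS + EA mouse was slightly above every control mouse. *Il6st* rose 6.17-fold with DSS (log2 fold change 2.62, SE 0.28, edgeR adjusted p = 0.00015). It was 4.87-fold lower with EA than with DSS (-2.28, SE 0.27, edgeR adjusted p = 0.000554). DSS + EA and control differed by 0.34 (log2, SE 0.28), which was not called (edgeR adjusted p = 0.592).

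*Osmr* was 3.049, 1.995 and 3.449 CPM in control, 18.98, 31.29 and 28.71 CPM in DSS and 7.913, 6.723 and 5.075 CPM in DSS + EA mice. The 3 groups did not overlap, with the DSS + EA mice in between. The gene rose 9.23-fold with DSS (log2 3.21, SE 0.32, edgeR adjusted p = 0.000114) and was 4.0-fold lower with EA (-2.00, SE 0.29, edgeR adjusted p = 0.00128). DSS + EA mice remained 2.31-fold above control (1.21, SE 0.34), which was not called (edgeR adjusted p = 0.0942).

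*Il6ra*, the chain that binds IL-6 and is found on hepatocytes and leukocytes, was uneven among the DSS mice. Their levels were 5.147, 20.21 and 18.10 CPM, against 4.574, 3.657 and 3.449 CPM in the control mice and 3.348, 5.603 and 4.441 CPM in the DSS + EA mice. DSS mouse 1 was barely above the control range and below DSS + EA mouse 2. *Il6ra* was called higher in DSS (log2 1.88, SE 0.48, edgeR adjusted p = 0.011) and lower with EA (-1.71, SE 0.47, edgeR adjusted p = 0.0192). The EA call was lost in the same edgeR test without DSS mouse 2 (-1.40, adjusted p = 0.0729), DSS mouse 3 (-1.53, 0.0503), DSS + EA mouse 1 (-1.55, 0.0676) or DSS + EA mouse 3 (-1.73, 0.0605).

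*Il11ra1*, the private chain for IL-11, was the single member called in no comparison. It measured 20.84, 16.62 and 18.39 CPM in control, 25.09, 20.42 and 24.03 CPM in DSS and 23.44, 20.17 and 16.49 CPM in DSS + EA mice, with all groups overlapping. The log2 difference was 0.31 (SE 0.21, edgeR adjusted p = 0.265) between DSS and control and -0.21 (SE 0.21, edgeR adjusted p = 0.465) between DSS + EA and DSS. In the annotation its span overlaps other genes, among them *Galt* on the same strand, and near-identical copies exist, of which *Il11ra2* had 0 counts in every library. Reads could have been divided among these genes, and the counting rule is not given in the sources used here.

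Within a library, the ratio of 2 genes does not depend on library size. The counts of *Osmr* per count of *Il6st* were 0.293, 0.171 and 0.321 in the control mice, 0.454, 0.392 and 0.355 in the DSS mice and 0.531, 0.462 and 0.421 in the DSS + EA mice. All DSS mice were above the controls, and DSS and DSS + EA overlapped. The control ratios rest on few reads, 12, 6 and 9 counts of *Osmr* against 41, 35 and 28 of *Il6st*. The mean log2 ratio was 0.66 higher in DSS than in control (SE 0.30, n = 3 per group), with p = 0.1 in a two-sided exact permutation test, which is the smallest p that 3 against 3 mice allow, and 0.2 after Benjamini-Hochberg adjustment over the 4 ratio comparisons made here. Without control mouse 2 the difference was 0.38. DSS + EA and DSS differed by 0.24 (SE 0.14, n = 3 per group, exact permutation p = 0.2, adjusted 0.267).

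*Stat3* itself was 44.47, 45.88 and 32.19 CPM in the control mice. It was 118.7, 216.6 and 135.8 CPM in the DSS mice and 53.87, 57.52 and 52.97 CPM in the DSS + EA mice. The DSS mice stood above all others, and the DSS + EA mice lay in a narrow band just above the controls. *Stat3* rose 3.84-fold with DSS (log2 1.94, SE 0.25, edgeR adjusted p = 0.000421) and was 2.87-fold lower with EA than with DSS (-1.52, SE 0.25, edgeR adjusted p = 0.00209). The difference between DSS + EA and control was 0.42 (SE 0.25) and was not called (edgeR adjusted p = 0.442). RNA counts do not measure STAT3 phosphorylation. The span of *Stat3* overlaps that of *Stat5a* on the opposite strand, which had 107 counts over the 9 libraries.

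*Socs3* was uneven among the DSS + EA mice. It was 17.53, 18.29 and 11.50 CPM in control, 184.7, 444.8 and 358.6 CPM in DSS and 159.5, 52.29 and 109.4 CPM in DSS + EA mice. DSS + EA mouse 1 came close to DSS mouse 1, whereas mouse 2 was far below, and no groups overlapped. *Socs3* rose 20.8-fold with DSS (log2 4.38, SE 0.48, edgeR adjusted p = 0.00017) and was 3.07-fold lower with EA than with DSS (-1.62, SE 0.42, edgeR adjusted p = 0.015). The EA call was lost in the same edgeR test without DSS mouse 2 (-1.36, adjusted p = 0.0517) and without DSS + EA mouse 3 (-1.65, adjusted p = 0.051).

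Compared with the control group, *Socs3* was the 1 member called higher in the DSS + EA group (6.75-fold, log2 2.76, SE 0.45, edgeR adjusted p = 0.0104), where 3.00% of all genes tested were called higher. The call was lost in the same edgeR test without control mouse 1 (2.84, adjusted p = 0.0659) and without control mouse 2 (2.87, adjusted p = 0.0525). Under the DEG rule 3 members, *Il6*, *Osm* and *Socs3*, were higher than in control, against 1.74% of all genes. All DSS + EA mice lay above all control mice for 8 of the 10 members, the exceptions being *Il6ra* and *Il11ra1*, against 18.0% of all genes. For *Lif* this rests on 2 counts in DSS + EA mouse 2 against 2 in control mouse 1, set apart only by library size. For *Il11* it rests on 2 counts in DSS + EA mouse 1 against 0 in the control mice. The median log2 fold change of the members was 1.78, or 1.22 with *Il11* and *Osm* set at their lower bounds (at least 2.35-fold and 2.70-fold). *Osm* was not called in this comparison (edgeR adjusted p = 0.13) but was called without DSS mouse 1 (0.0155).

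The counts of *Socs3* per count of *Stat3* were 0.394, 0.399 and 0.357 in the control mice. They were 1.56, 2.05 and 2.64 in the DSS mice and 2.96, 0.909 and 2.07 in the DSS + EA mice. The control mice were close together and below all others, while DSS + EA mice lay on both sides of the DSS mice. The mean ratio was 5.32-fold higher in DSS than in control (log2 2.41, SE 0.23, n = 3 per group, exact permutation p = 0.1, the smallest possible, adjusted 0.2). DSS + EA and DSS differed by -0.20 (log2, SE 0.55, n = 3 per group, exact permutation p = 0.9, adjusted 0.9), and without DSS + EA mouse 2 the sign turned, to 0.28. The ratio plot sets these values beside those of *Osmr* and *Il6st*.

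**Figure D3:**
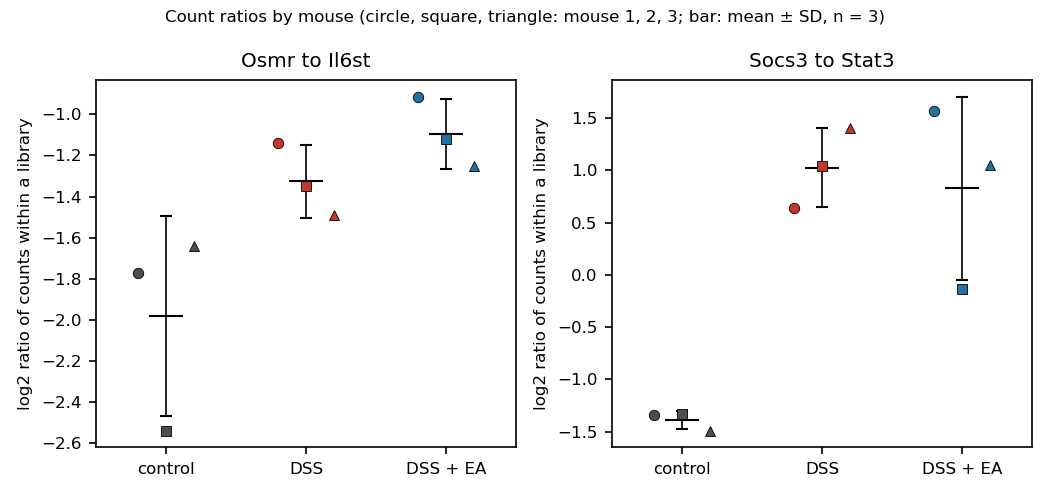
The vertical axes give the log2 ratio of counts within each library, *Osmr* to *Il6st* on the left and *Socs3* to *Stat3* on the right, with a symbol per mouse and bars for the mean ± SD (n = 3). The control mice have the lowest ratios in both panels, and the DSS + EA mice spread widely for *Socs3* to *Stat3*.

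Of the 8 other ligands that signal through gp130, 2 passed the filter on low counts. *Clcf1*, a ligand of the ciliary neurotrophic factor receptor, had 2, 2 and 1 counts in control, 15, 49 and 25 in DSS and 6, 3 and 1 in DSS + EA mice, so that the DSS mice stood above all others. Its count ratio of DSS to control was 15.6 (95% counting interval 6.43 to 49.2, edgeR adjusted p = 0.000817), and it was lower with EA (log2 -2.80, SE 0.51, edgeR adjusted p = 0.00328). *Ebi3*, a subunit of IL-27 and IL-35, was called higher in DSS (log2 3.68, SE 1.13, edgeR adjusted p = 0.0258), with 4, 26 and 163 counts in the DSS mice against 7, 3 and 4 in control, so that DSS mouse 1 was no higher than the controls. Without DSS mouse 3 its log2 fold change was 1.30 and the call was lost (edgeR adjusted p = 0.131), as it was without control mouse 1, 2 or 3 (0.0721, 0.0817 and 0.0713). *Ctf2*, which encodes neuropoietin, did not pass the filter and had 0, 0 and 1 counts in control, 5, 59 and 60 in DSS and 2, 0 and 1 in DSS + EA mice. Of the 5 other receptor chains, *Lifr*, the LIF receptor, was tested and rose with DSS (log2 1.81, SE 0.36, edgeR adjusted p = 0.00342) and was lower with EA (-1.52, SE 0.35, edgeR adjusted p = 0.00957).

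Of 9 genes for JAK kinases and STATs other than *Stat3*, 7 were tested. With DSS, the kinase gene *Jak2* was the only 1 of these 7 called higher (log2 1.58, SE 0.36, edgeR adjusted p = 0.00648), against 21.5% of all genes. Its counts were 46, 24 and 21 in the control mice, 58, 201 and 66 in the DSS mice and 22, 24 and 28 in the DSS + EA mice. The kinase gene *Tyk2* was lower with DSS (-0.87, SE 0.24, edgeR adjusted p = 0.0168), against 19.5% of all genes called lower. The kinase gene *Jak1* was called neither with DSS (0.65, SE 0.30, edgeR adjusted p = 0.112) nor with EA compared with DSS (-0.82, SE 0.30, edgeR adjusted p = 0.0593). With EA compared with DSS, *Jak2* was the only 1 of the 7 called lower (-1.77, SE 0.36, edgeR adjusted p = 0.00547), against 18.3% of all genes. *Stat2*, which acts in interferon signalling, and the kinase gene *Tyk2* were higher with EA than with DSS, against 17.2% of all genes called higher. *Stat2* had 60, 45 and 56 counts in control, 43, 73 and 88 in DSS and 213, 96 and 180 in DSS + EA mice, and it exceeded both DSS (1.47, SE 0.32) and control (1.62, SE 0.32) in the DSS + EA mice (edgeR adjusted p = 0.00731 and 0.0252). Without 1 mouse in turn, the calls of *Jak2* and that of *Stat2* over DSS were kept in 9 of 9 edgeR fits, that of *Stat2* over control in 4 and the calls of *Tyk2* in 7 and 6. The *Stat2* call over control was lost without any 1 control mouse (1.53, 1.53 and 1.80) or DSS + EA mouse 1 or 3 (1.41 and 1.52). The *Tyk2* calls were lost without DSS mouse 2 (-0.75 and 0.78), without control mouse 3 with DSS (-0.79) and without DSS + EA mouse 1 or 3 with EA (0.87 and 0.76). The median of the list was 0.22 for DSS against control and -0.08 for DSS + EA against DSS.

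Of 16 negative regulators of JAK-STAT signalling other than *Socs3*, 14 were tested, and 3 were called higher and 1 lower with DSS, where 21.5% of all genes were called higher and 19.5% lower. The share of the list called higher was thus near that of all genes. The phosphatase genes *Ptpn2* (log2 1.11, SE 0.16), *Ptpn1* (2.56, SE 0.64) and *Ptprc* (2.24, SE 0.54), the last of which encodes the leukocyte antigen CD45, were higher, and *Pias4*, a STAT-binding SUMO ligase, was lower (-1.25, SE 0.42). With EA, *Ptpn2* (-0.70, SE 0.15) and *Ptpn1* (-1.76, SE 0.61) were lower than in DSS, and no gene of the list was called higher, against 18.3% of all genes called lower and 17.2% higher. The *Ptpn1* call with EA was kept in 1 of 9 edgeR fits without 1 mouse, that without DSS mouse 1, with log2 fold changes of -2.20 to -1.33 over the 9. The *Pias4* call was lost without DSS mouse 2 (-1.41) or control mouse 1 or 2 (-1.24 and -1.20). Of 5 genes that govern shedding of the IL-6 receptor, *Timp3*, an inhibitor of the sheddase ADAM17, and *Rhbdf2* and *Rhbdf1*, its trafficking partners, were higher with DSS (log2 1.89, 2.16 and 0.93) and lower with EA (-1.49, -1.21 and -1.47), that is, 3 of 5 genes in each comparison, against 21.5% and 18.3% of all genes. The sheddase genes *Adam17* and *Adam10* were called in neither comparison. The *Rhbdf1* call with DSS was kept in 3 of 9 edgeR fits without 1 mouse (0.70 to 1.11) and lost without any 1 DSS mouse, control mouse 2 or 3 or DSS + EA mouse 3, and the *Rhbdf2* call with EA was lost without DSS + EA mouse 3 (-1.21, adjusted p = 0.0521).

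Of 30 textbook STAT3 target genes, 26 were tested. With DSS, 15 of the 26 were called higher and 0 lower, against 21.5% and 19.5% of all genes, and the median log2 fold change was 3.20, against 0.02 over all genes. The acute-phase genes *Hp* (haptoglobin, log2 7.92, SE 0.54), *Saa3* (serum amyloid, 11.04, SE 0.87) and *Lbp* (lipopolysaccharide-binding protein, 4.44, SE 0.40) and the protease inhibitor *Timp1* (6.34, SE 0.44) had the smallest p-values. *Hp* had 12, 17 and 23 counts in control, 3132, 4634 and 6959 in DSS and 368, 397 and 269 in DSS + EA mice, with no overlap. With EA compared with DSS, 14 were called lower and 2 higher, against 18.3% and 17.2% of all genes, with a median of -1.58. *Hp* (-3.60, SE 0.43), *Timp1* (-2.75, SE 0.35), the transcription factor *Nfil3* (-3.36, SE 0.44) and the adhesion molecule *Icam1* (-2.80, SE 0.38) were lower. The 2 higher genes were *Ccnd1* (cyclin D1, 1.17, SE 0.36) and *Saa1* (1.82, SE 0.58), each called in 6 of 9 edgeR fits without 1 mouse. *Ccnd1* was lost without DSS mouse 3 (1.11) or DSS + EA mouse 1 or 3 (1.13 and 1.02), and *Saa1* without DSS mouse 2 (1.74) or DSS + EA mouse 1 or 3 (1.61 and 1.81). Compared with control, 7 of the 26 were called higher in the DSS + EA group, against 3.00% of all genes. All these genes respond to other factors as well, and the lists were chosen with results of these data known, so that the counts are a description.

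**Figure D4:**
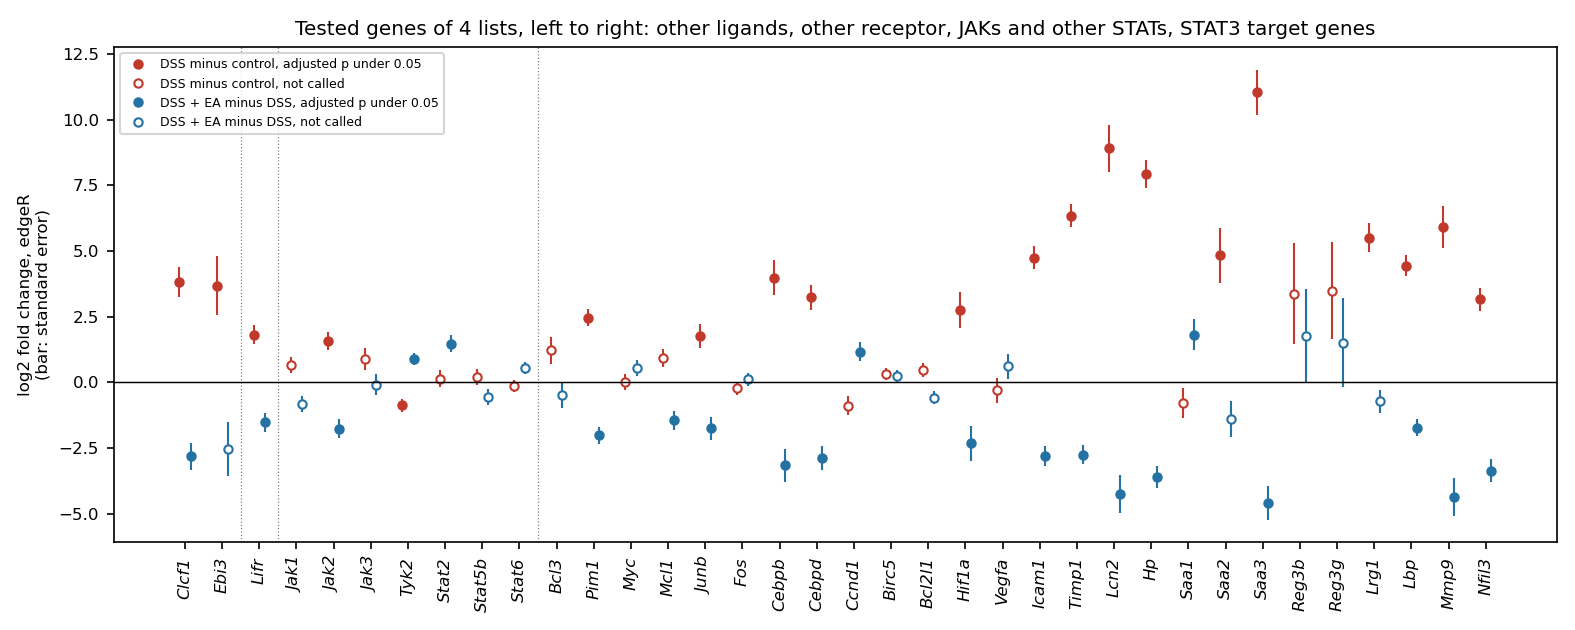
The vertical axis gives the log2 fold change of each tested gene of 4 lists, DSS minus control in red and DSS + EA minus DSS in blue, with bars for the standard error and filled circles for an adjusted p under 0.05 in edgeR's test. *Tyk2* is called lower in DSS than in control and higher in DSS + EA than in DSS, and the called STAT3 target genes on the right lie above 0 in red and, apart from *Ccnd1* and *Saa1*, below 0 in blue.

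By the mean absolute difference of centred log2 profiles over the 9 mice, among 11180 named genes, the genes most like *Il6* were *Sphk1* (0.24), *Adamts1* (0.30) and *Pi15* (0.33), where the median over all genes was 2.14. Most like *Osm* were *Nlrp3* (0.34), *Serpina3f* (0.35) and *Medag* (0.40), with a median of 1.72. Most like *Osmr* were *Arid5a* (0.17), *Il4ra* (0.19) and *Hsd11b1* (0.22), and most like *Socs3* were *Steap4* (0.33), *Plaur* (0.34) and *Serpina3f* (0.36), with medians of 1.15 and 1.68. *Il11* was less closely matched, by *Lgi2* (0.59), *Hhipl1* (0.61) and *Medag* (0.62), and *Lif* was nearest to *Il5ra* (0.26), *Sema4c* (0.36) and *Col1a1* (0.36). Among the members the closest pair was *Osmr* and *Il6st* (0.29). The 9 points fall into 3 groups, so that any gene with the same group differences scores as alike.

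Markers of several cell types moved with the members. The summed level of 10 neutrophil markers was 22.6 to 159 CPM in control, 4544, 25164 and 27420 CPM in DSS mice 1, 2 and 3, and 1199 to 1592 CPM in DSS + EA mice. DSS mouse 1 was lowest in neutrophil markers within its group, as it was in *Il6*, *Osm*, *Osmr*, *Il6ra*, *Il6st*, *Stat3* and *Socs3*. The same mouse was also lowest in the macrophage and monocyte, fibroblast and endothelial sums. *Il11* and *Lif* were lowest in DSS mouse 3 and *Il11ra1* in DSS mouse 2. All 9 neutrophil markers tested were called higher with DSS and 7 were called lower with EA, while *Ltf* was at 0 in the control mice. Of all genes tested, 21.5% were called higher with DSS and 18.3% lower with EA, shares that also stand beside the marker counts below. The 12 macrophage and monocyte markers summed to 286 to 356, 1057 to 1893 and 649 to 858 CPM in control, DSS and DSS + EA, with 10 called higher with DSS and 6 lower with EA. The 10 fibroblast markers summed to 769 to 837, 4146 to 6883 and 1645 to 1731 CPM, with 10 called higher and 7 lower, and the 8 endothelial markers to 51.0 to 63.8, 138 to 163 and 66.4 to 74.0 CPM, with 6 higher and 5 lower. The part of these cell types in the levels of the members was not tested.

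The tissue markers were present in every library. The 12 markers of colon epithelium summed to 15066 to 31797 CPM in control, 2658 to 12273 CPM in DSS and 11667 to 18810 CPM in DSS + EA mice. Of these, 7 were called lower in DSS than in control and 4 higher in DSS + EA than in DSS. Of all genes tested, 19.5% were called lower in DSS than in control and 17.2% higher in DSS + EA than in DSS. The 8 smooth muscle markers summed to 2917 to 3619, 1168 to 2229 and 2273 to 2332 CPM, and 6 were called lower under DSS and 2 higher under EA. Of the T and B cell markers, 6 were tested, and 0 were called with DSS and 2 were called higher with EA (sums of 34.9 to 41.6, 26.4 to 45.0 and 50.8 to 89.5 CPM). The markers called higher with EA, 4 of 12, 2 of 8 and 2 of 6, are few genes and were not tested against the share of 17.2%. The 10 markers of pancreatic acinar cells, a tissue that is no part of the colon, summed to 530, 30059 and 14987 CPM in DSS + EA mice 1, 2 and 3 and to at most 262 CPM in the other groups. With DSS + EA mouse 1 as the only mouse of its group, *Il6* (log2 -4.97, adjusted p = 0.0158) and *Il6st* (-2.15, adjusted p = 0.0406) were called lower than in DSS by edgeR, and *Stat3* (-1.52, 0.0823), *Osmr* (-1.71, 0.0659), *Osm* (-2.41, 0.234), *Il6ra* (-2.09, 0.141) and *Socs3* (-1.02, 0.23) were not. That fit assumes that the single mouse varies as the other groups do, and it was chosen after seeing the data.

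**Figure D5:**
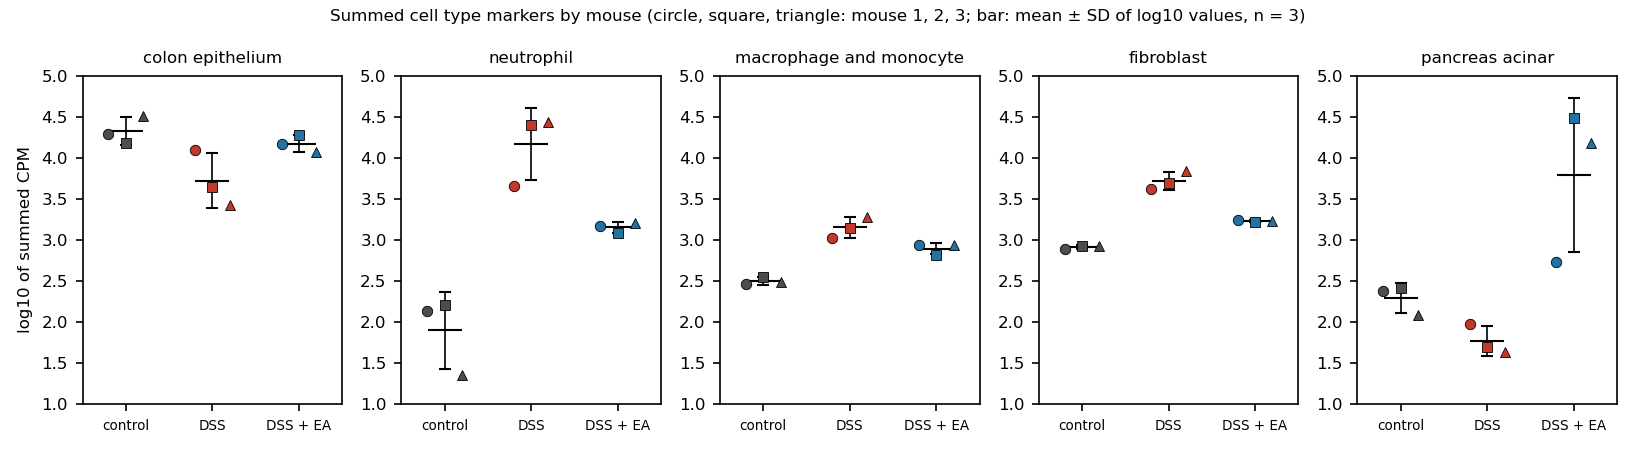
The vertical axes give log10 of the summed CPM of 5 marker lists in each mouse, with bars for the mean ± SD of the log10 values (n = 3). Neutrophil, macrophage and fibroblast sums are highest in the DSS mice, and the pancreatic sum is high in DSS + EA mice 2 and 3.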

How the data were processed

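Per the labels, total colon RNA was reverse transcribed, amplified by PCR and sequenced on a PromethION. The authors deposited raw read counts (whole numbers, not normalized) for each gene, on mm10. The counting tool and its use of strand are not given in the sources used here. Library totals were 2627695 to 4235576, so that 3 counts equalled 0.652 to 1.15 CPM. Counting intervals cover counting error only, and PCR reads are not independent molecules.

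Counts were fitted with edgeR 4.0.16 in R 4.3.3 (TMM, filterByExpr by group, prior count 0.125, quasi-likelihood F test) over all 9 libraries, with group as the only term and Benjamini-Hochberg adjustment. SE is the log2 fold change divided by the square root of F. DESeq2 1.42.0, other scalings and filters, a replicate block and leaving out each mouse were alternatives, with effects given in the closing section. The edgeR p-values rest on the spread between mice of the same group, estimated over all 3 groups together and shared in part across genes. Leaving out a DSS mouse can therefore change a call between DSS + EA and control. No libraries of a group were identical. Figures and summaries used Python 3.11.15. A gene of the JAK and STAT list is not reported here. All members, ligands, receptors, JAKs and STATs could be named, and of other lists up to 4 called genes with the smallest P per direction. *Reg3b*, *Reg3g*, *Lcn2* and *Il10* were named after their values were seen. Members and lists were chosen with earlier results of these data known. Scripts were tested on simulated data.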

Additional observations from a re-analysis of the deposited data

How the results depend on the processing

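For DSS against control, 9 members were called under DESeq2, RLE factors, library totals, no filter on low counts and a prior count of 2 and without any single mouse, 8 with a filter at a mean of 20 counts, which removes *Lif*, and 7 under the DEG rule or with only these groups in the fit, which leaves *Il11* and *Lif* untested. For DSS + EA against DSS, 7 members were called in edgeR's fit, 8 with DESeq2 (*Il11* added), 2 under the DEG rule, 2 with DSS + EA mouse 1 alone in its group and 4 to 7 without 1 mouse. The lowest number, 4, came without DSS mouse 2 and without DSS + EA mouse 3. *Il6*, *Il6st*, *Osmr* and *Stat3* were called in each of the 9 fits that left out 1 mouse. For DSS + EA against control, 1 member was called, and 3 under the DEG rule, 3 with DESeq2 (*Il11*, *Osm* and *Socs3*), 2 without a filter on low counts (*Il6* added), and 0 to 3 without 1 mouse (0 without control mouse 1 or 2, 2 without DSS mouse 2, 3 without DSS mouse 1). Same-numbered mice are different animals, and their deviations from the group means correlated between -0.160 and 0.105, so that the numbers do not pair them. With the number as a replicate block, 9, 7 and 2 members were called in these comparisons, and 24 pathway genes in each of the first 2, against 27 and 26 without it. Without 1 mouse, 26 to 35 and 22 to 37 pathway genes were called, and 28 in each with DESeq2. These counts pool higher and lower calls over all the pathway lists. In edgeR's fit, 21.5% of all genes were called higher and 19.5% lower in DSS against control. In DSS + EA against DSS these shares were 17.2% and 18.3%.

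Values near 0 changed sign. The log2 ratio of *Socs3* to *Stat3* between DSS + EA and DSS was -0.20, 0.0089 with the median of the mice and -0.57 to 0.28 without 1 mouse. *Il6ra* in DSS + EA against control was 0.17, -0.010 to 0.31 without 1 mouse (lowest without DSS + EA mouse 2) and -0.25 with DSS + EA mouse 1 alone. *Il11ra1* was -0.059 to 0.19 in that comparison without 1 mouse (lowest without DSS + EA mouse 1), and 0.036 in DSS + EA against DSS with DSS + EA mouse 1 alone. The cause was not tested. No other scaling moved the median of all genes beyond -0.098. With 3 mice per group and at most 2 counts in a control library, the folds of *Il6*, *Il11*, *Lif* and *Osm* over control are known only within wide limits.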

Other observations

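*Reg3b* and *Reg3g*, antimicrobial lectins of the gut epithelium that were named after their values were seen, were highest in DSS mouse 1 within the DSS group, the mouse that was lowest in *Osm* and *Il6ra*. *Reg3b* had 41783 counts in DSS mouse 1 but 426 and 83 in DSS mice 2 and 3, against 561, 100 and 2936 in control and 75698, 27857 and 40541 in DSS + EA mice. *Reg3g* had 12773, 112 and 22 counts in the DSS mice. Other acute-phase genes of the same list differed in their order among the DSS mice. *Lcn2* (lipocalin-2, also named after its values were seen) and *Saa3* were lowest in DSS mouse 1, with 1671, 11013 and 15461 counts and 22821, 62784 and 133363 counts. *Saa1* was highest in DSS mouse 1 (1671, 835.4 and 278.4 CPM), and *Lbp* was lowest in DSS mouse 2 (42.14, 27.16 and 61.79 CPM). Neither *Reg3b* (log2 3.38, SE 1.91, edgeR adjusted p = 0.181) nor *Reg3g* (3.49, SE 1.85, edgeR adjusted p = 0.156) was called in DSS against control. The epithelial marker sum was 12273 CPM in DSS mouse 1 and 4409 and 2658 CPM in the others, and its part in these counts was not tested.

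*Il10*, an anti-inflammatory cytokine that signals through STAT3, did not pass the filter. It had 0, 0 and 1 counts in control, 8, 27 and 30 in DSS and 3, 2 and 2 in DSS + EA mice, and the DSS mice lay above all others.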
